A study of Zea mays with 2 samples.

Results

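The genes of the C4 photosynthetic cycle and of its regulatory kinase were compared between a control and a treated leaf RNA library of maize (Zea mays). The set held 9 of the 39634 genes in the deposited tables, chosen by their identifiers: 2 carbonic anhydrases, PEP carboxylase (pep1), PEP carboxylase kinase (PPCK1), NADP malate dehydrogenase (mdh6), NADP malic enzyme (me3), PEP carboxykinase and 2 pyruvate phosphate dikinase genes (pdk1 and PPDK2). Both libraries came from leaves of the strain Sugar 75 at the vegetative stage V5, in a series on drought. The treated plants had received a seaweed extract and the control plants had not; the label of the treated library calls it only a sample, and the series text says that 1 of the pair is control and 1 treated. Leaves of 3 samples were pooled for each library, with 2 technical replicates, and the sources used here do not say whether both pools were droughted. Since each group had 1 library, no difference has a replicate check and none was tested, and all values describe these 2 libraries.

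In C4 leaves, carbon dioxide is first fixed in mesophyll cells, moved as an organic acid into the bundle sheath around the veins, and released there for Rubisco. Carbonic anhydrase supplies bicarbonate to PEP carboxylase, NADP malate dehydrogenase reduces the oxaloacetate formed to malate, and pyruvate phosphate dikinase regenerates the acceptor PEP, all in the mesophyll. In maize the bundle sheath releases the carbon dioxide mainly through NADP malic enzyme, with PEP carboxykinase as a parallel route. PEP carboxylase kinase phosphorylates PEP carboxylase and makes the enzyme less sensitive to inhibition by malate. Whole leaves were sequenced, so a gene is placed in a cell type here by this background and not by measurement, and fewer cells of a type cannot be told apart from less RNA per cell.

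The kinase gene PPCK1 was 3.05-fold higher in the treated library and the dikinase gene PPDK2 4.94-fold lower, and the other 7 genes lay within the threshold used here, at log2 ratios of -0.77 to 0.07. Values are FPKM (fragments per kilobase of transcript, corrected for depth). The range in brackets is the deposited interval, which covers quantification of that library and not the spread between plants. Ratios are log2((treated + 1)/(control + 1)), and a gene counts as higher or lower at a log2 ratio of 1 or more in that direction. A percentage or fold given for a single gene states how far apart its 2 values are and does not say that it passed. Of the 9 genes, 1 was higher (PPCK1) and 1 was lower (PPDK2), beside 3.71% higher and 2.52% lower among the 16272 genes that reached 1 FPKM in either library. At a 1.5-fold difference 3 of the 9 were lower (PPDK2, GRMZM2G121878 and me3), beside 5.67% of those genes. The median log2 ratio of the 9 genes was -0.43, against 0.22 for all measured genes. Of the 9, 7 lay below 0, as did 28.6% of all measured genes, and 8 lay below the median gene.

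Most of the 9 genes are abundant, and 8 of them reached 100 FPKM in either library. The 321 genes at that level are the closer background for those that reached it in both libraries. Of the 321, 6.23% were higher, 17.1% lower and 28.7% lower by 1.5-fold, 49.2% had a log2 ratio below 0, and the median was 0.04. PPCK1 passed this level only with the extract (102 FPKM, against 33.4 without it), so its own difference decided its place there. PPDK2, at 38.2 FPKM without and 7.72 FPKM with the extract, is not among the 321. This background is therefore not a fair one for the 2 genes past the threshold. The intervals of the 2 libraries did not overlap for 8 of the 9 genes, against 37.3% of all measured genes but 93.1% of the abundant ones. In 7 of the 9 genes the intervals did not overlap and the treated library was the lower one. The same was true of 8.76% of all measured genes and 46.1% of the abundant ones. The 8 genes include PPCK1 and PPDK2, and the 7 include PPDK2. The shares of the abundant genes are therefore not a fair background for all genes in these counts.

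**Figure D1:**
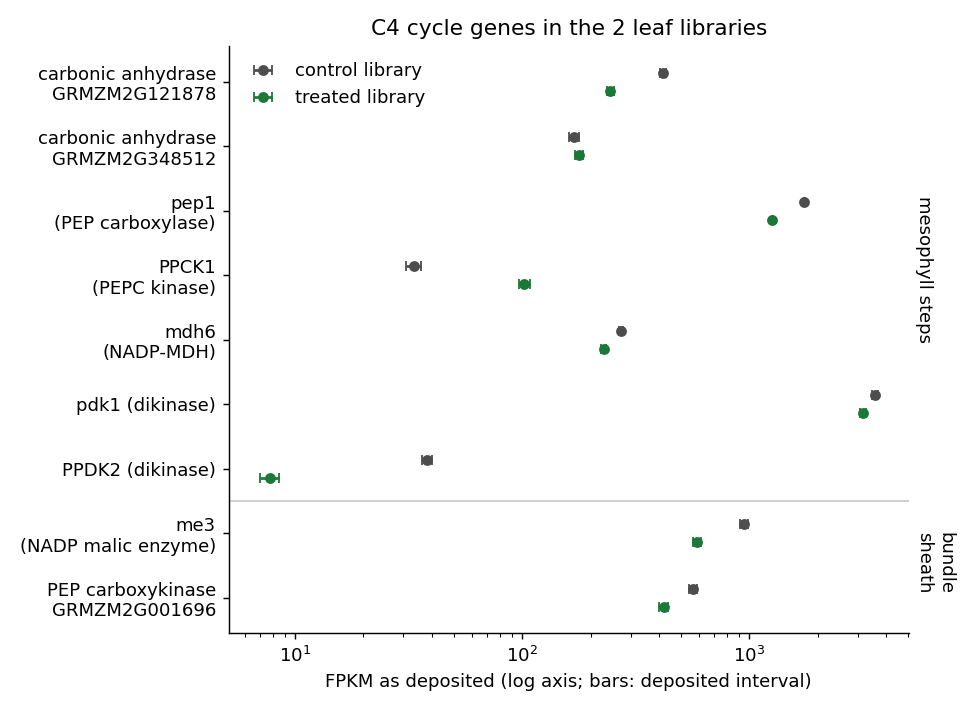
FPKM of the 9 genes on a log axis, with 1 point for each library and bars for the deposited interval; genes above the grey line belong to mesophyll steps and those below it to bundle sheath steps. The treated library is the lower one in 7 genes, PPCK1 stands at 102 against 33.4 FPKM, and the bars of GRMZM2G348512 overlap.

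The defining genes of both cell types were abundant in both libraries. In the control library the FPKM levels ran in the order pdk1, pep1, me3, PEP carboxykinase, carbonic anhydrase GRMZM2G121878, mdh6, carbonic anhydrase GRMZM2G348512, PPDK2 and PPCK1. The treated library had the same order for the first 7 genes and exchanged the last pair, and no neighbours in either order had overlapping intervals. The 9 genes together held 3.32% of the summed FPKM of the control library (7758 FPKM) and 2.69% of that of the treated one (6190 FPKM). pdk1 had rank 6 of all genes without the extract and rank 3 with it, and pep1 had ranks 12 and 14. pdk1 supplied 46.0% of the FPKM of the 9 genes in the control library against 51.0% in the treated one, and pep1 supplied 22.5% and 20.4%.

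The carbonic anhydrase genes, which act first, had unlike ratios. GRMZM2G121878 (chromosome 3, 215466578 to 215473931, in the coordinates of the files, on a build not given in the sources used here) measured 418 FPKM (404 to 431) without the extract and 244 FPKM (235 to 253) with it. It was 41.5% lower, and its log2 ratio was -0.77 (-0.87 to -0.67 from the interval ends). GRMZM2G348512 (chromosome 3, 215424736 to 215437638) measured 170 FPKM (161 to 178) without and 178 FPKM (170 to 186) with the extract, and these intervals overlapped. Its log2 ratio of 0.07 turned to -0.15 after centring on the median gene and to -0.20 after division by the upper quartile. GRMZM2G121878 was 2.46 times as high as GRMZM2G348512 in the control library and 1.37 times in the treated one. The pair lies 28939 bases apart with no listed gene between, carries the same family description, and GRMZM2G348512 matches 2 RefSeq genes, so how reads were divided between the pair is uncertain. Their sum was 587 FPKM without and 422 FPKM with the extract, 28.1% lower.

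PEP carboxylase itself had the narrowest intervals of the set relative to its value, at 0.560% of it to each side without the extract and 0.732% with it. pep1 (GRMZM2G083841, chromosome 9, 61296278 to 61301686) measured 1747 FPKM (1737 to 1757) without the extract and 1262 FPKM (1252 to 1271) with it. It was 27.8% lower, its log2 ratio was -0.47 (-0.49 to -0.45), and 7.44% of all measured genes had a lower ratio. With 1 listed transcript, its intervals imply 127333 fragments in the control library against 74737 in the treated one.

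PPCK1 (GRMZM2G178074, chromosome 5, 214716080 to 214717618), whose product phosphorylates PEP carboxylase, lay in the direction opposite to pep1. It measured 33.4 FPKM (30.9 to 36.0) without the extract and 102 FPKM (96.3 to 108) with it. Its log2 ratio was 1.58 (1.40 to 1.77), above that of 99.2% of measured genes, and 1.36 after centring. Its rank among all genes was 798 in the control library against 254 in the treated one. In the authors' deposited table of higher genes PPCK1 has a log2 fold change of 1.31, a p-value of 0.03045 and a q-value of 0.759, and is not marked significant; that p-value compares 2 libraries and not the conditions.

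The other kinase genes stayed far below PPCK1. PPCK2 (GRMZM2G135091) measured 2.50 FPKM (1.81 to 3.19) without and 5.70 FPKM (4.53 to 6.87) with the extract, without overlap. It was 2.28-fold higher, but with the pseudocount its log2 ratio was 0.94, just inside the threshold. PPCK3 (GRMZM2G096753) measured 0.68 and 1.07 FPKM with overlapping intervals. Of the 3 relatives 2 were measured, none was higher or lower, beside 3.71% and 2.52% of all measured genes, and their median log2 ratio was 0.62. PPCK1 supplied 90.7% of the FPKM of the 4 kinase genes in the control library against 93.7% in the treated one.

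**Figure D2:**
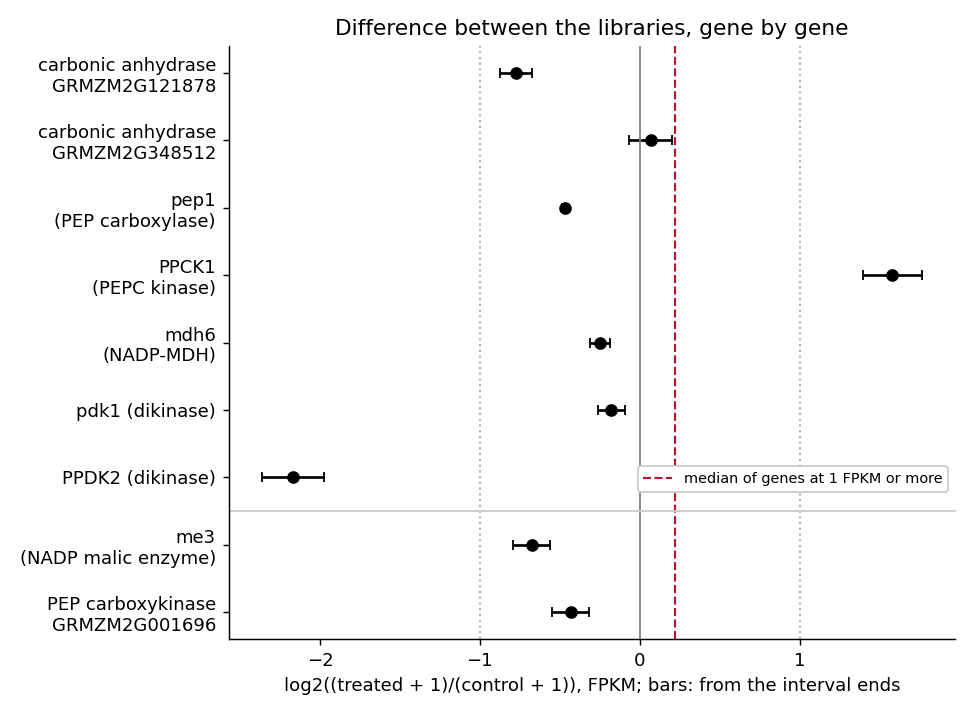
Log2 ratio of treated to control FPKM for each of the 9 genes, with bars from the ends of the deposited intervals; dotted lines mark a log2 ratio of 1 in each direction, and the dashed line marks the median gene at 0.22. PPCK1 at 1.58 and PPDK2 at -2.17 lie outside the dotted lines, and the other 7 lie between -0.77 and 0.07.

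The abundant genes of the malate and PEP steps in the mesophyll had the smallest differences among the 7 genes with log2 ratios below 0. mdh6 (GRMZM2G129513, chromosome 1, 203170066 to 203174226), the enzyme that turns oxaloacetate into malate, measured 271 FPKM (266 to 276) without the extract and 228 FPKM (223 to 234) with it. It was 15.8% lower, with a log2 ratio of -0.25 (-0.31 to -0.19). pdk1 (GRMZM2G306345, chromosome 6, 145987054 to 145997616) measured 3571 FPKM (3467 to 3675) without and 3158 FPKM (3064 to 3252) with the extract. It was 11.6% lower, with a log2 ratio of -0.18 (-0.26 to -0.09). Its RefSeq synonyms name a C4 and a cytosolic dikinase, and the gene value does not separate them.

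The other dikinase gene had the lowest ratio of the 9. PPDK2 (GRMZM2G097457, chromosome 8, 107003964 to 107014861), annotated as cytoplasmic in the files, measured 38.2 FPKM (36.3 to 40.1) without the extract and 7.72 FPKM (6.97 to 8.48) with it. It was 4.94-fold lower, its log2 ratio was -2.17 (-2.36 to -1.98), and 0.442% of measured genes had a lower ratio. In the authors' deposited table of lower genes PPDK2 has a log2 fold change of -2.555, a p-value of 0.0005 and a q-value of 0.0657, and is not marked significant. The authors' values are not on the scale used here. As folds they were 5.88 lower for PPDK2 and 2.48 higher for PPCK1, against 4.94 and 3.05 here. The reason was not tested. The other 7 genes are in none of the authors' deposited lists. The longer lists hold no p-value of that comparison above 0.05, so absence from them is not a finding of no difference. PPDK2 stood at 1.07% of pdk1 FPKM in the control library against 0.245% in the treated one, and both genes together had 3609 and 3166 FPKM. The dikinase genes share 1 description, so how reads of similar stretches were divided between them is uncertain. PPDK2 is counted with the mesophyll steps by its enzyme, and these values do not show that it takes part in the C4 cycle.

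Both bundle sheath decarboxylase genes had log2 ratios below 0 with intervals that did not overlap, and neither passed the threshold. me3 (GRMZM2G085019, chromosome 3, 7275168 to 7280519), the NADP malic enzyme that splits malate into pyruvate and carbon dioxide, measured 944 FPKM (907 to 981) without the extract and 591 FPKM (567 to 615) with it. It was 37.5% lower, its log2 ratio was -0.68 (-0.79 to -0.56), and 4.65% of measured genes had a lower ratio. The PEP carboxykinase gene GRMZM2G001696 (chromosome 1, 35739883 to 35744291), whose enzyme forms PEP and carbon dioxide from oxaloacetate, measured 565 FPKM (543 to 588) without and 419 FPKM (402 to 436) with the extract. It was 25.9% lower, with a log2 ratio of -0.43 (-0.55 to -0.31). me3 was the more abundant of the pair in both libraries, at 1.67 times PEP carboxykinase (1.54 to 1.81) in the control and 1.41 times (1.30 to 1.53) in the treated library.

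Set side by side, the bundle sheath steps had the lower median, but the single genes of the branches interleaved. The median log2 ratio was -0.25 over the 7 mesophyll genes and -0.55 over the 2 bundle sheath genes, a difference of 0.31, or 0.20 without PPCK1. The mesophyll genes ran from -2.17 to 1.58, or from -0.77 to 1.58 without PPDK2, which is annotated as cytoplasmic. Either range holds both bundle sheath values, and pep1 and GRMZM2G121878 had lower ratios than PEP carboxykinase. Summed over the mesophyll steps, FPKM was 6248 without and 5180 with the extract, 17.1% lower. Summed over the bundle sheath steps it was 1510 without and 1010 with the extract, 33.1% lower. The mesophyll sum was 4.14 times the bundle sheath sum (3.89 to 4.41) in the control library and 5.13 times (4.80 to 5.49) in the treated one. Without the dikinases it was 1.75 times (1.66 to 1.85) and 1.99 times (1.88 to 2.12).

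Ratios within a library are free of the scaling between libraries. Relative to pep1, its substrate, PPCK1 stood at 1.91% (1.76 to 2.07) in the control library against 8.09% (7.58 to 8.60) in the treated one, 4.22-fold higher. The summed carbonic anhydrases stood at 33.6% and 33.5% of pep1, and PEP carboxykinase at 32.4% and 33.2%, with overlapping ranges in both cases. mdh6 stood at 15.5% and 18.1% of pep1, pdk1 at 204% and 250.3%, and me3 at 54.1% and 46.8%, without overlap. As a fold between the libraries, PPCK1 had the largest difference of these 6 ratios.

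**Figure D3:**
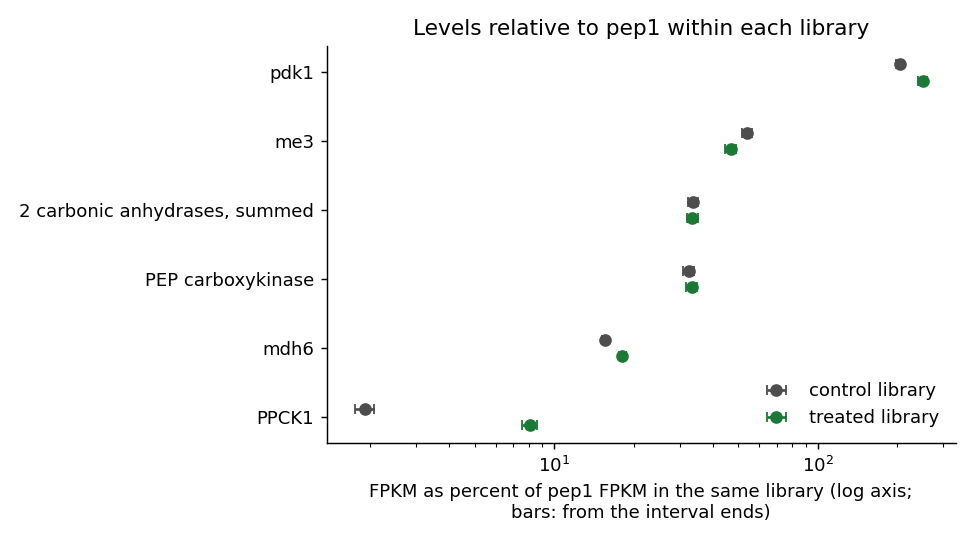
FPKM of 5 genes and of the 2 summed carbonic anhydrases as a percentage of pep1 FPKM in the same library, on a log axis, with bars from the interval ends. PPCK1 stands at 1.91% in the control library against 8.09% in the treated one, and the carbonic anhydrases and PEP carboxykinase lie between 32.4% and 33.6%.

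The 9 genes were set beside relatives picked by their annotation, and not all of these share the same description. Among the carbonic anhydrase relatives, for example, GRMZM2G037177 is described as a dynactin subunit. Of 53 relatives in 6 enzyme families, 30 reached 1 FPKM. None was higher and 1 was lower, beside 3.71% and 2.52% of all measured genes, so the count of lower relatives is near the background. Log2 ratios were below 0 in 15 and above 0 in 15, beside 28.6% of all measured genes below 0, and the median of 0.01 turned to -0.21 after centring. The lower one was GRMZM2G141289, described as a malate and lactate dehydrogenase, with 8.93 FPKM without and 2.55 FPKM with the extract, and it was chosen for naming after its values were seen. The C4 gene held most of the FPKM in most families. pep1 held 98.8% of the FPKM of 6 PEP carboxylase genes in the control library against 98.6% in the treated one. GRMZM2G001696 held 98.2% and 97.6% of that of 8 PEP carboxykinase genes, and me3 93.5% and 88.0% of that of 14 malic enzyme genes. The 2 carbonic anhydrases held 81.3% and 77.7% of that of 16 genes, and mdh6 53.4% and 54.0% of that of 12.

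Of 14 other carbonic anhydrase genes 8 were measured, none was higher or lower, and the median log2 ratio was 0.29. After centring 1 of them, GRMZM5G807267, counted as lower at -1.02. Centring lowers every ratio by 0.22, and the share of all measured genes counted as lower after it is not given here. The 3 most abundant were GRMZM2G094165 at 57.7 FPKM without and 40.9 FPKM with the extract, GRMZM5G807267 at 30.1 and 16.8 FPKM, and GRMZM2G414528 at 17.9 and 21.5 FPKM, each without overlap of intervals. Of 5 other PEP carboxylase genes 4 were measured, none was higher or lower, and the median was -0.17. They stayed under 10 FPKM, with GRMZM2G074122 at 9.50 and 7.57 FPKM, pep4 (GRMZM2G473001) at 8.48 and 5.40 FPKM and pep7 (GRMZM2G069542) at 2.34 and 3.64 FPKM.

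Of 11 other malate dehydrogenase genes 8 were measured, with a median log2 ratio of -0.22. The cytosolic gene mdh5 (GRMZM2G415359) measured 135 FPKM (129 to 142) without and 98.7 FPKM (93.3 to 104) with the extract, mdh2 (GRMZM2G154595) 25.9 and 20.2 FPKM, and GRMZM2G072744 36.3 and 40.4 FPKM with overlapping intervals. Of 13 other malic enzyme genes 5 were measured, none was higher or lower, and the median was 0.34. Unlike me3, GRMZM2G159724 measured 29.4 FPKM (27.7 to 31.1) without and 37.5 FPKM (35.4 to 39.7) with the extract, and GRMZM5G886257 measured 9.41 and 15.3 FPKM, while GRMZM2G085747 measured 13.5 and 9.84 FPKM. Of 7 other PEP carboxykinase genes 3 were measured, none was higher or lower, and the median was -0.24. All 3 had overlapping intervals, with pck2 (GRMZM5G870932) at 7.57 and 8.34 FPKM, GRMZM2G580389 at 1.66 and 1.05 FPKM and GRMZM2G128074 at 1.03 and 0.717 FPKM.

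**Figure D4:**
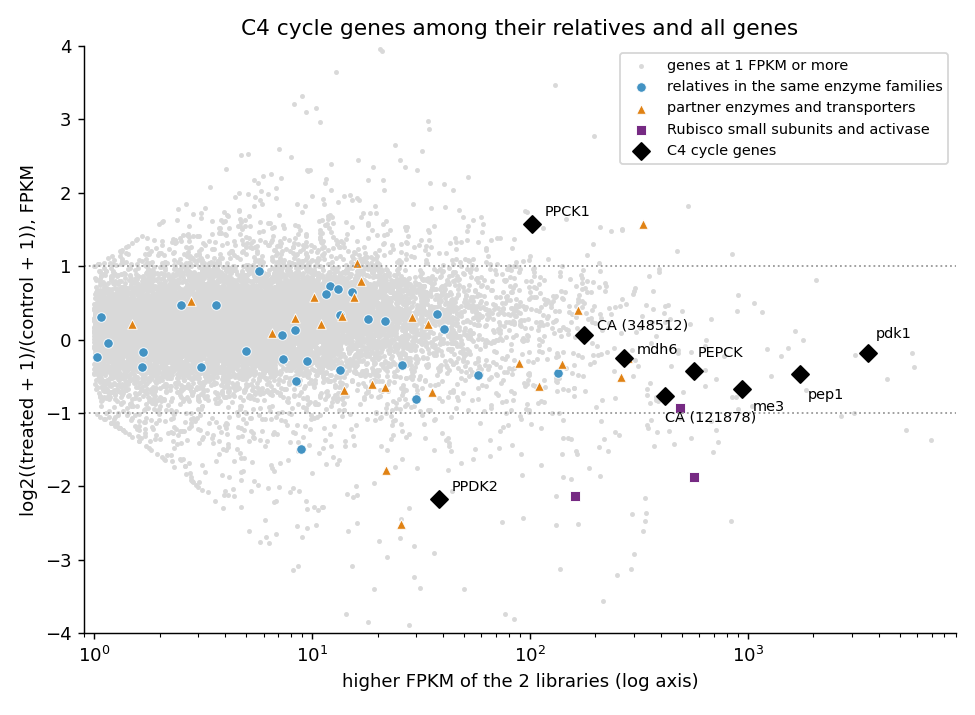
Log2 ratio of treated to control FPKM against the higher FPKM of the 2 libraries (log axis) for the 9 C4 cycle genes, their relatives, partner enzymes and transporters, the Rubisco genes and all genes at 1 FPKM or more, of which 24 lie beyond the vertical range; dotted lines mark a log2 ratio of 1 in each direction. By the higher of the 2 values, the C4 cycle genes apart from PPDK2 are at 100 FPKM or more, PPCK1 only through the treated library. Of the 30 relatives, 1 lies below the lower dotted line and none above the upper one, and both Rubisco small subunits lie below -1.

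Partners of the dikinase step are its regulator and the enzymes that remove its by-products. pdrp1 (GRMZM2G131286) encodes the regulatory protein that switches dikinase off by phosphorylation. This gene measured 126 FPKM (122 to 130) without and 166 FPKM (161 to 171) with the extract, 1.32-fold higher. It stood at 3.52% of pdk1 FPKM (3.31 to 3.74) in the control library against 5.26% (4.95 to 5.59) in the treated one. A second gene of that description, GRMZM2G004880, measured 18.9 and 12.1 FPKM, and the median over these 2 measured genes of 3 was -0.10. Adenylate kinases, which recycle the AMP formed, and soluble pyrophosphatases, which split the pyrophosphate, made up 20 genes, of which 13 were measured, 1 was higher and none lower, beside 3.71% and 2.52% of all measured genes. Their median of 0.22 was that of the median gene. adk1 (GRMZM2G178192) measured 283 and 237 FPKM, and the pyrophosphatase genes AC216353.2_FG005 and GRMZM2G046587 measured 262 and 183 FPKM and 111 and 70.8 FPKM. The higher one was the adenylate kinase GRMZM2G150014, with 7.24 and 16.0 FPKM, a log2 ratio of 1.05 that was 0.83 after centring.

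Aminotransferases convert C4 acids and amino acids into each other. Of 8 aspartate and alanine aminotransferase genes 5 were measured, 1 was higher and 1 lower, beside 3.71% and 2.52% of all measured genes, and the median was -0.33. The aspartate aminotransferase GRMZM2G146677 measured 111 FPKM (104 to 117) without and 331 FPKM (315 to 347) with the extract, 2.99-fold higher, with a log2 ratio of 1.57 like that of PPCK1. The chloroplast aspartate aminotransferase GRMZM5G836910 measured 141 and 112 FPKM. The alanine aminotransferase gene alt (GRMZM2G088064) measured 25.5 FPKM (23.4 to 27.6) without and 3.67 FPKM (2.79 to 4.55) with the extract, 6.96-fold lower, but it matches 2 RefSeq genes and its value is uncertain. GRMZM5G840582, whose description combines several enzymes, measured 35.7 and 21.3 FPKM, and it too matches 2 RefSeq genes.

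Chloroplast envelope transporters carry the acids between compartments. Of 5 dicarboxylate and PEP transporter genes, all measured, none was higher and 1 was lower, beside 3.71% and 2.52% of all measured genes, and the median was -0.65. The lower one, the dicarboxylate transporter pDCT2 (GRMZM2G086258), measured 21.9 FPKM (20.2 to 23.6) without and 5.67 FPKM (4.80 to 6.54) with the extract, 3.86-fold lower. pOMT1 (GRMZM2G383088), which exchanges oxoglutarate and malate, measured 21.7 and 13.5 FPKM, and pDCT1 (GRMZM2G040933) 13.97 and 8.32 FPKM. The PEP transporter genes, named after their values were seen, had log2 ratios above 0, with ppt2 (GRMZM2G103047) at 1.61 FPKM without and 2.78 FPKM with the extract, without overlap, and ppt1 (GRMZM2G047404) at 1.15 and 1.49 FPKM with overlapping intervals and a ratio of -0.01 after centring.

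The Rubisco genes act on the carbon dioxide that the bundle sheath decarboxylases release. For the small subunit the log2 ratio was -1.87 at GRMZM2G113033 and -2.12 at ssu1 (GRMZM2G098520), below those of me3 and PEP carboxykinase and of every other C4 gene except PPDK2. Rubisco activase RCA1 (GRMZM2G162200) had a log2 ratio of -0.93. Thus 2 of these 3 genes were lower, beside 2.52% of all measured genes and 17.1% of those at 100 FPKM or more, and the median was -1.87. However, ssu1 reached 100 FPKM only without the extract (161 FPKM, against 36.1 with it). Its own difference decided its place there, so that background is not a fair one for ssu1. After centring RCA1 was at -1.15, and all 3 counted as lower. Centring lowers every ratio by 0.22, and the share of all measured genes counted as lower after it is not given here. The small subunits are paralogs, so how reads were divided between them is uncertain, and the difference between Rubisco and decarboxylase genes was not tested.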

How the data were processed

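The submitters' processing notes name Cufflinks 2.2.1 and Cuffdiff, TopHat2 2.1.0, Bowtie2 2.2.6, cutadapt 1.8.1 and Picard 1.115, without saying what each did; the build and the counting of strand are not given there. The deposited library tables hold, per the file headers, FPKM per gene with an interval. The authors' deposited comparison gives log2 fold changes, p-values and q-values for listed genes. A further 8 FPKM columns there match no library's label by name and were not used.

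Library totals are not in FPKM values, so depth was read from the intervals, taking the implied fragment number as the square of 2 times the value over the distance to the upper bound. Among genes below 5 fragments, 71.7% (control) and 71.3% (treated) were whole within 0.01, too few for a count test. Over 2066 genes whole in both, a fragment in the treated library was worth 1.25 times its FPKM in the control, so the treated library was the shallower one. All 181 organelle genes are listed at 0.

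Ratios used a pseudocount of 1 FPKM, which understates differences of low genes, and genes at 1 FPKM or more in either library. Ranges of ratios combine opposite interval ends. The 11 comparison lists were patterns on the files' descriptions and on RefSeq synonyms (Zm-B73-REFERENCE-NAM-5.0; all 9 genes matched; only names were taken). In each list the 3 measured genes with the highest mean were named, and up to 3 past a log2 ratio of 1 at 10 FPKM or more. The genes and lists were chosen with earlier results of these data known. Python 3.11.15 with pandas 2.3.3 was used. The ratio step was run on control values multiplied by known factors without added noise, which checks the arithmetic only. Alternatives were pseudocounts of 0.1 and 10 FPKM, centring on the median gene, rescaling to a fixed sum, division by the upper quartile, a 1.5-fold threshold, and no minimum or one of 5 FPKM.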

Additional observations from a re-analysis of the deposited data

How the results depend on the processing

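No paired analysis was possible because each group has 1 library. Over 45 recomputed ratios of the 9 genes (5 alternatives each), 24 stayed within the range given by the interval ends, and 2 changed sign, both of the carbonic anhydrase GRMZM2G348512. PPCK1 ran from 1.32 (upper quartile) to 1.63 (rescaled sum), and PPDK2 from -2.42 (upper quartile) to -1.44 (pseudocount of 10 FPKM). The number of higher C4 genes was 1 under every alternative. The number of lower ones was 1 except for 2 after division by the upper quartile, where GRMZM2G121878 reached -1.04, and 3 at the 1.5-fold threshold. The difference between the mesophyll and bundle sheath medians ran from 0.20 to 0.31. After centring, the 58 measured genes of all comparison lists had a median of -0.21, against 0.01, with 1 higher, against 2, and 7 lower, against 5. The gained calls were GRMZM5G807267 at -1.02 and RCA1 at -1.15. Centring lowers every ratio by 0.22. The shares of all measured genes that pass after centring or after division by the upper quartile are not given here, so those counts have no background.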
